A study of Mus musculus with 4 samples.

Results

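Fn14, CD44, CD24, galectin-3 and annexin A5 are 5 proteins that sit in membranes or bind membranes or glycans, and that are known from injured kidney tubules. Their genes, Tnfrsf12a, Cd44, Cd24, Lgals3 and Anxa5, were taken by name from the RT-PCR array of the study, and all 5 were found among its 84 genes. The array is a panel for mouse nephrotoxicity read with SYBR green. It was run on total RNA of MCT cells, a murine kidney epithelial line that the labels place in the convoluted tubule, grown in DMEM with serum. Each of the 4 conditions has 1 sample: untreated cells (control), and cells given 10 μg/ml cyclosporine A (CsA), 1 μM of the cell-permeable peptide 11R-VIVIT (labelled 11R), which inhibits NFAT, and 10 μM SB203580, which inhibits the kinase p38 MAPK. The study's methods give 24 h for treatments of these cells. CsA inhibits calcineurin, which activates NFAT, and the comparisons ask whether a kinase inhibitor or a direct NFAT inhibitor moves the same transcripts as CsA does.

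Fn14 is the receptor of the cytokine TWEAK, and its engagement signals through NF-κB to chemokines and adhesion molecules. CD44 is a receptor for hyaluronan and osteopontin that epithelial cells raise on injury, while CD24 is a small, heavily glycosylated membrane-anchored protein of immature and regenerating tubular cells. Galectin-3 binds galactose-containing glycans on the cell surface and in the matrix. Annexin A5 binds phosphatidylserine in the presence of calcium, which makes it a common probe of dying cells.

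The measurement was the Ct, the PCR cycle at which the fluorescence of a gene's product crosses a threshold, so that a lower Ct means more transcript and a difference of 1 cycle means a change of 2-fold (1 log2 unit). A level is given as the number of cycles by which a gene came after Actb (beta-actin, the reference gene) in the same sample, and a log2 change is the difference of that number between samples. Each gene has its own primers, so a difference in Ct between genes is not a difference in transcript amount. Changes were read from its shift between samples, and a single Ct only as early or late detection. With 1 sample in a condition there is no spread between replicates and no test, and a change of 2-fold or more, in either direction, is what "raised" and "lowered" stand for. All 5 genes were detected early in all 4 samples, with Ct values from 20.7 to 25.1, whereas the median Ct over the 84 array genes lay between 29.3 and 30.05. The RNA came from whole cultures, in which fewer cells that carry a transcript and less transcript in each cell cannot be told apart.

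The label of the cells could be checked in small part. Among the markers listed for the proximal tubule, Slc22a6, the gene of the organic anion transporter OAT1, had a late Ct, between 32.06 and 34.08. Of 5 distal tubule markers the array holds Egf (epidermal growth factor), at Ct 28.9 in untreated cells, and Calb1 (calbindin), at Ct 36.1. None of the 5 epithelial markers is on the array. Of 5 fibroblast markers it holds Vim, the intermediate filament vimentin, which dividing and cultured epithelial cells also make, at Ct 23.2 in untreated cells. Of 4 leukocyte markers it holds Ctss (cathepsin S), at Ct 34.4 in untreated cells.

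Treatment with CsA raised 2 of the 5 genes, Lgals3 and Tnfrsf12a, and lowered Cd24. Cd44 and Anxa5 were higher by less than 2-fold. On the whole array, CsA raised 16 of 80 genes with a value (20%) and lowered 13 (16.2%). SB203580 and 11R-VIVIT raised none of the 5 and each lowered Cd24. SB203580 raised 15.2% of 79 array genes and lowered 8.86%, and 11R-VIVIT raised 5.26% of 76 and lowered 3.95%. The split of array genes depended on the reference. Relative to the median Ct of 64 other detected genes, CsA raised 7 and lowered 25, 11R-VIVIT 2 and 9, and SB203580 2 and 14, while with no reference gene CsA raised 22 and lowered 7 and SB203580 22 and 5. Relative to the median of early genes, the 16 others whose Ct stayed under 25, 11R-VIVIT raised 9 and lowered 1. The median log2 change of the 5 genes was 0.76 with CsA, -0.10 with 11R-VIVIT and -0.07 with SB203580, beside array medians of 0.15, -0.02 and 0.27. All these comparisons use the same untreated sample.

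**Figure D1:**
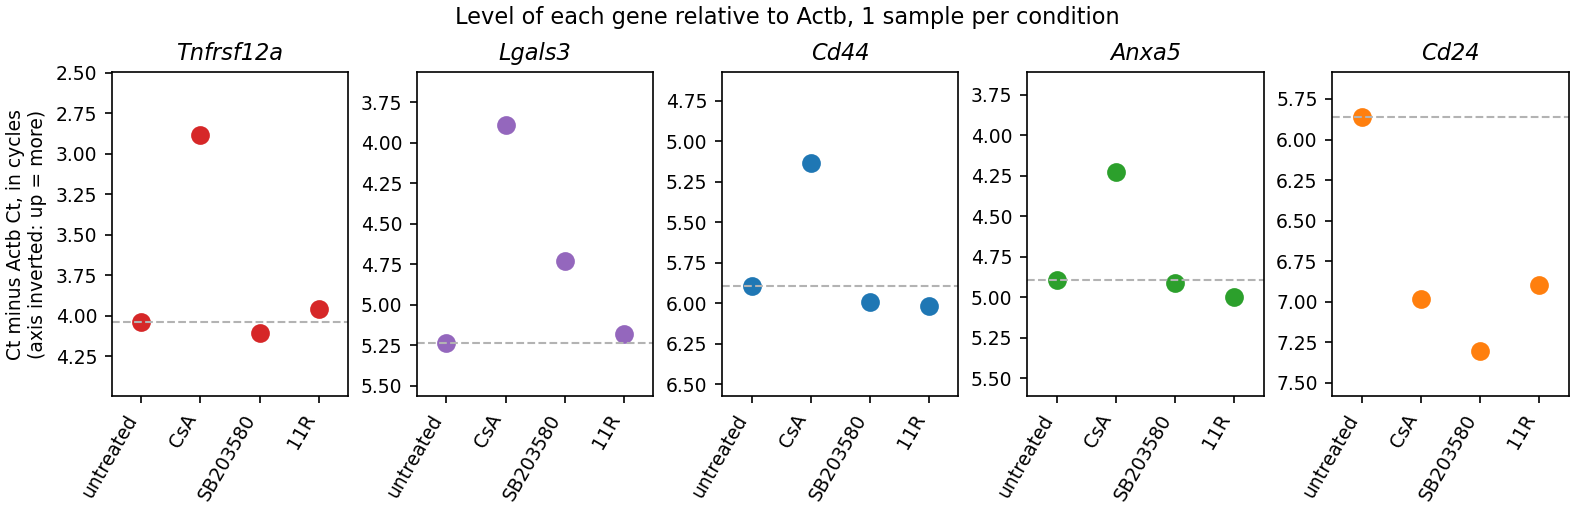
Level of each gene relative to Actb in the 4 samples, as Ct minus the Actb Ct in cycles, with the axis inverted so that more transcript lies higher; every panel spans the same number of cycles, the dashed line marks untreated cells, and each point is 1 sample. CsA stands highest for Tnfrsf12a, Lgals3, Cd44 and Anxa5, while untreated cells stand highest for Cd24.

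The 4 genes with a promoter sequence in the source used are shown with the 250 bases before their annotated start. The study set CsA against an inhibitor of NFAT, a factor that binds DNA at GGAAA. The sequences are from RefSeq on GRCm38.p6, read 5′ to 3′ on the strand of the gene, and capitals mark each GGAAA on either strand (as TTTCC on the other).
Tnfrsf12a, chr17:23677450-23677699, minus strand: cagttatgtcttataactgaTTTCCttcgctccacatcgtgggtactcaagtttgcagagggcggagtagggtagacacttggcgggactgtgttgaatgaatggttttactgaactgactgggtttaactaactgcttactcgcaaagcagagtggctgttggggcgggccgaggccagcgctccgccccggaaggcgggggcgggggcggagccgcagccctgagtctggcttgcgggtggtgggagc
Cd44, chr2:102901666-102901915, minus strand: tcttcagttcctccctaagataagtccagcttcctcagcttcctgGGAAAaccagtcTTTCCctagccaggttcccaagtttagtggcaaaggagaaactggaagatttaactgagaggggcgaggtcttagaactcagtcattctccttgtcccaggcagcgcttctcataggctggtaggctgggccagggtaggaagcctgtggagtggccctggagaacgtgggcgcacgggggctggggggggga
Lgals3, chr14:47373610-47373859, plus strand: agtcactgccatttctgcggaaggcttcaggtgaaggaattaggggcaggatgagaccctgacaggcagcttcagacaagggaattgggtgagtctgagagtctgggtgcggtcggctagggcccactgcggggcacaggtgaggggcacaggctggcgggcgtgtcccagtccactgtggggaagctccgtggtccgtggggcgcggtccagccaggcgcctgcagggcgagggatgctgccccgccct
Anxa5, chr3:36475888-36476137, minus strand: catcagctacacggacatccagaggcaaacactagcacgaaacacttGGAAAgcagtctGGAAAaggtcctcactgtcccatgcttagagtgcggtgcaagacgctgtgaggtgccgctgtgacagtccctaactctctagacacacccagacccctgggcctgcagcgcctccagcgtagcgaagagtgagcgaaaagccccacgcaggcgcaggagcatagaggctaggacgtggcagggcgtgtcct

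Cd44 and Anxa5 each held 2 matches to GGAAA, Tnfrsf12a held 1 and Lgals3 held 0, and of 32841 promoters of the same length 55.6% held at least 1. The match of Tnfrsf12a begins 230 bases before the start, those of Cd44 205 and 193 bases and those of Anxa5 203 and 191 bases before it. The NF-κB consensus was matched once in Lgals3, 70 bases before the start, and in 7.25% of all promoters. No match was found in the 4 windows for AP-1 (TGANTCA, in 6.75% of all promoters), a CRE core (TGACG, 17.8%), a TATA box (TATAAA, 12.4%) or the CArG box (1.47%). All motifs were searched on both strands, and no match of the NF-κB consensus overlapped a GGAAA. Cd24a had no promoter sequence in the source used and is therefore not shown. A match describes the letters of these windows and not a site that is bound.

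Tnfrsf12a, the Fn14 receptor gene, crossed the threshold at a Ct of 22.2 in untreated cells, 20.7 with CsA, 22.1 with 11R-VIVIT and 21.9 with SB203580. Relative to Actb, it came 4.04 cycles later in untreated cells, 2.89 with CsA, 3.96 with 11R-VIVIT and 4.11 with SB203580. The CsA sample stood apart, 1.07 cycles above the next sample, while the other 3 lay within 0.15 cycles of each other. The log2 change against untreated cells was 1.15 with CsA (2.22-fold), 0.08 with 11R-VIVIT and -0.07 with SB203580. Of the 80 array genes with a value for CsA, 12 had a higher log2 change. Without any reference gene, the log2 difference with CsA was 1.42.

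The other membrane receptor, CD44, had a similar profile of smaller size. Cd44 had a Ct of 24.01 in untreated cells, 23.0 with CsA, 24.1 with 11R-VIVIT and 23.8 with SB203580. Its level was 5.89 cycles after Actb in untreated cells, 5.14 with CsA, 6.01 with 11R-VIVIT and 5.99 with SB203580, so that CsA was again highest and the other 3 samples lay within 0.12 cycles. The CsA change was 1.69-fold (log2 change 0.76), under the 2-fold threshold. An absolute change of this size or more was seen in 37 of the 80 array genes with CsA.

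Cd24 went the other way. This symbol is an older one, which the RefSeq table lists as a synonym of Cd24a. Its Ct was 23.98 in untreated cells, 24.8 with CsA, 25.03 with 11R-VIVIT and 25.1 with SB203580. It came 5.86 cycles after Actb in untreated cells, 6.98 with CsA, 6.90 with 11R-VIVIT and 7.31 with SB203580. Untreated cells were the highest sample by 1.03 cycles, and the 3 treated samples lay within 0.41 cycles of each other. The log2 change was -1.12 with CsA, -1.03 with 11R-VIVIT and -1.44 with SB203580, which is 0.46-fold, 0.49-fold and 0.37-fold of the untreated level. Only 3 of 79 array genes had a lower log2 change with SB203580 and 2 of 76 with 11R-VIVIT, against 10 of 80 with CsA. Because these values share 1 untreated Ct for Cd24, a deviation of that Ct would enter each of them, and its part in the result was not tested. The values with 11R-VIVIT and CsA stood close to the threshold. The 11R-VIVIT change was -0.85 relative to the median of the early array genes, and the CsA change was -0.85 without a reference gene.

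Lgals3, which encodes the glycan-binding galectin-3, had the largest CsA change of the 5. Its Ct was 23.4 in untreated cells, 21.7 with CsA, 23.3 with 11R-VIVIT and 22.5 with SB203580. Relative to Actb it came 5.24 cycles later in untreated cells, 3.89 with CsA, 5.18 with 11R-VIVIT and 4.73 with SB203580. CsA was highest, SB203580 lay between, and 11R-VIVIT was 0.06 cycles from untreated cells. CsA raised Lgals3 2.54-fold (log2 change 1.35), and 10 of 80 array genes had a higher log2 change. With SB203580 the log2 change was 0.51 (1.42-fold), the only value above 0 among the 5 genes with this inhibitor relative to Actb, and with 11R-VIVIT it was 0.06.

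Anxa5, the gene of the phosphatidylserine-binding annexin A5, had a Ct of 23.0 in untreated cells, 22.1 with CsA, 23.1 with 11R-VIVIT and 22.7 with SB203580. Its level was 4.90 cycles after Actb in untreated cells, 4.23 with CsA, 4.998 with 11R-VIVIT and 4.91 with SB203580. CsA was highest by 0.67 cycles and the other 3 samples lay within 0.10 cycles. The CsA change was 1.59-fold (log2 change 0.67), close to the median absolute change of 0.68 over the array with CsA. The log2 change of Anxa5 was -0.10 with 11R-VIVIT and -0.02 with SB203580.

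The treated samples were also compared with each other, which leaves the untreated sample out. Against SB203580, CsA was higher for all 5 genes, with log2 differences from 0.32 for Cd24 to 1.22 for Tnfrsf12a, and Tnfrsf12a alone passed 2-fold (2.34-fold). In this comparison 12.3% of 81 array genes passed 2-fold upwards and 18.5% downwards, and the median of the 5 genes was 0.84 beside 0.02 for the array. Against 11R-VIVIT, CsA was at least 2-fold higher for Lgals3 (2.44-fold) and Tnfrsf12a (2.11-fold) and 1.84-fold and 1.71-fold higher for Cd44 and Anxa5, while Cd24 differed by -0.09 on the log2 scale. Here 22.8% of 79 array genes passed 2-fold upwards and 15.2% downwards. With the median of the early genes as the reference, the Tnfrsf12a difference was 0.80 and no longer reached 2-fold. SB203580 and 11R-VIVIT differed by less than 2-fold for all 5 genes, from -0.41 for Cd24 to 0.45 for Lgals3, where 13.8% of 80 array genes passed 2-fold upwards and 7.5% downwards.

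**Figure D2:**
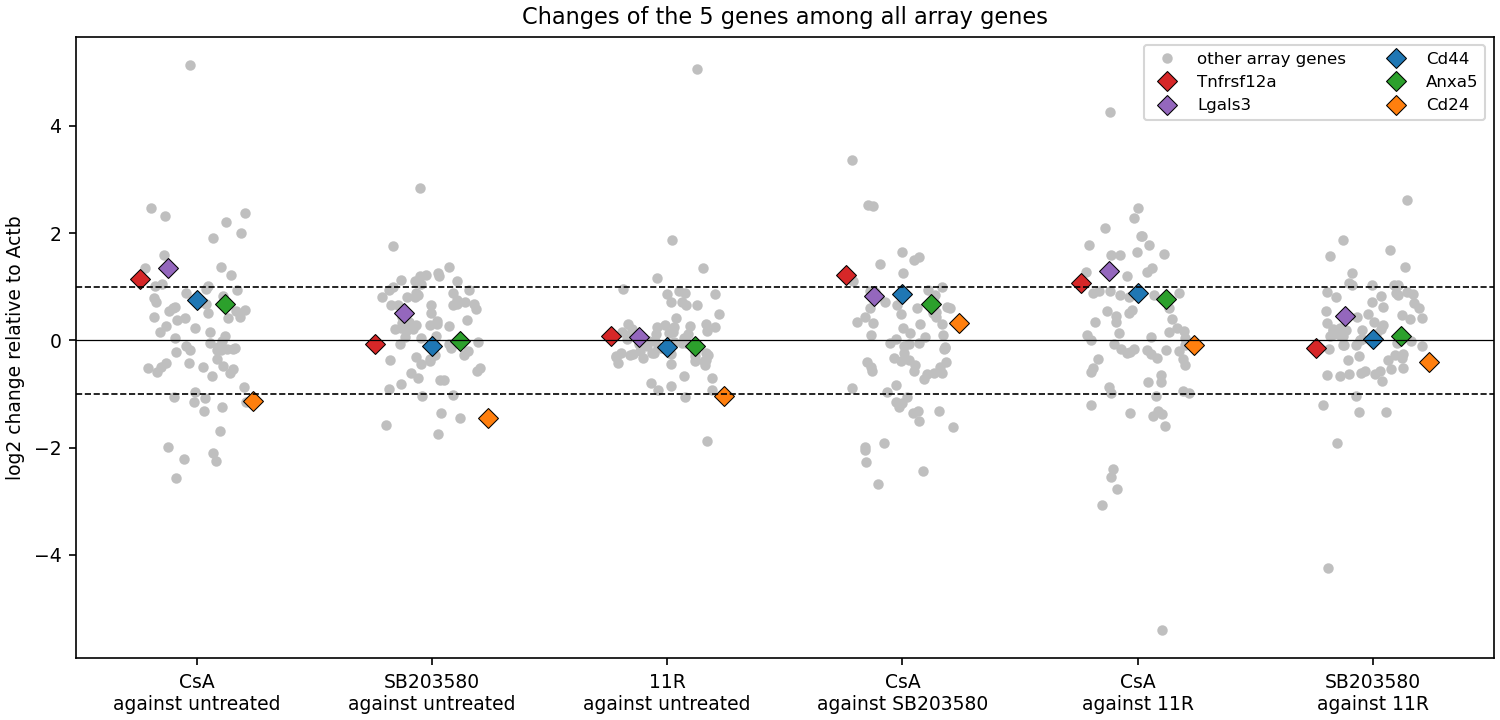
Log2 change relative to Actb in the 6 comparisons of samples, with 1 point for each array gene and diamonds for the 5 genes; dashed lines mark 2-fold, and a gene past cycle 35 in 1 sample is drawn at its bound. Tnfrsf12a and Lgals3 lie above the upper line with CsA against untreated cells and against 11R-VIVIT, and Cd24 lies below the lower line with each treatment against untreated cells.

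Shifts between samples in the Ct distance of a pair of genes need no reference gene. Cd44 and Anxa5 kept nearly the same distance, with a Ct of Cd44 that was later than that of Anxa5 by 0.99 cycles in untreated cells, 0.91 with CsA, 1.02 with 11R-VIVIT and 1.08 with SB203580, a range of 0.17 cycles. The Ct of Cd24 was later than that of Tnfrsf12a by 1.83 cycles in untreated cells, 4.10 with CsA, 2.94 with 11R-VIVIT and 3.20 with SB203580. The ratio of Tnfrsf12a to Cd24 thus shifted by 2.27 log2 units with CsA, 1.11 with 11R-VIVIT and 1.37 with SB203580, and that of Lgals3 to Cd24 by 2.47, 1.09 and 1.95. A ratio shows that the genes changed unequally and not which of them changed.

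Actb is the only housekeeping gene in the table used here, and its Ct was 18.1 in untreated cells, 17.8 with CsA, 18.1 with 11R-VIVIT and 17.8 with SB203580. The median Ct of the 16 other array genes whose Ct stayed under 25 throughout moved every log2 change by -0.09 with CsA, 0.18 with 11R-VIVIT and -0.05 with SB203580 compared with Actb. The median Ct of all 64 other genes detected in every sample moved them by -0.60, -0.42 and -0.43. Under this last reference CsA raised 0 of the 5 genes 2-fold, with 0.56 for Tnfrsf12a and 0.75 for Lgals3 on the log2 scale. A further reference, the median over these 64 genes of each gene's own Ct difference, was added after the values were seen and moved the changes by -0.15, 0.04 and -0.28, which left Tnfrsf12a with CsA at 0.996, just under 2-fold, and Lgals3 at 1.19. Over the references and other settings tried, Cd24 lay between -1.72 and -0.85 with CsA, between -1.88 and -1.14 with SB203580 and between -1.45 and -0.85 with 11R-VIVIT. The 4 other genes stayed above 0 with CsA under all of them, at 0.56 to 1.42 for Tnfrsf12a, 0.75 to 1.62 for Lgals3, 0.16 to 1.03 for Cd44 and 0.08 to 0.94 for Anxa5. With SB203580 and no reference gene, Tnfrsf12a (0.23), Cd44 (0.20) and Anxa5 (0.29) lay above 0, on the other side from their Actb-relative values.

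**Figure D3:**
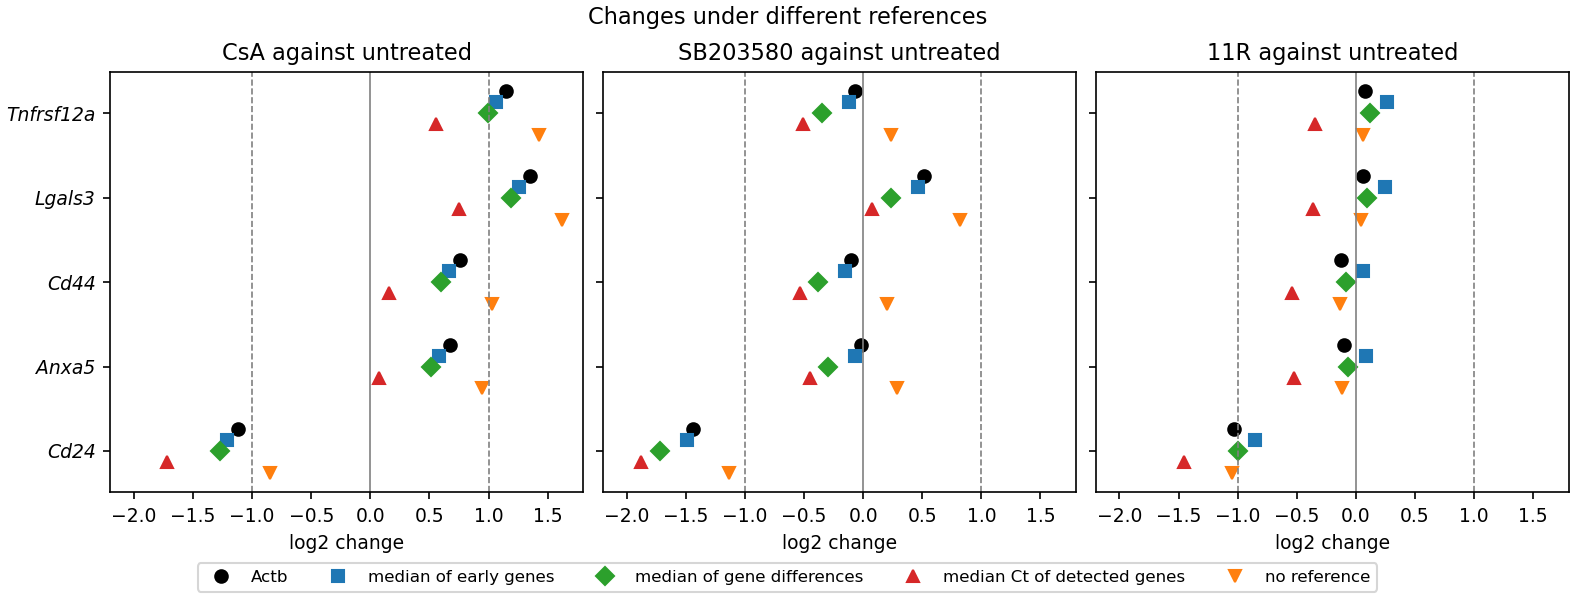
Log2 change of the 5 genes against untreated cells with Actb, with 3 references made from other array genes and with no reference; each symbol is the value from 1 sample of each condition, and dashed lines mark 2-fold. The Cd24 values lie below 0 in all 3 panels, and the other 4 genes lie above 0 with CsA under every reference.

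The array genes with the most similar profile were sought among 34 other genes whose Ct stayed under 30 throughout, by the root mean square difference of the Actb-relative levels over the 4 samples, each gene centred on its own mean. For Tnfrsf12a they were Tmsb10 (thymosin beta 10, which binds actin monomers) at 0.18 cycles, Lcn2 (the iron-siderophore carrier NGAL) at 0.18 and CCng1 (cyclin G1) at 0.18, where the median over the 34 genes was 0.58. Lcn2 was also nearest to Cd44 (0.10 cycles), followed by Cyr61 (a matricellular protein) at 0.13 and Tmsb10 at 0.16. For Anxa5 the nearest were Cyr61 and Lcn2, both at 0.09, and Idh1 (an NADPH-producing isocitrate dehydrogenase) at 0.16, and for Lgals3 they were Gstp1 (a glutathione transferase) at 0.16, Tmsb10 at 0.16 and Lcn2 at 0.19. The nearest gene to Cd24 was Cdkn1a, the gene of the cell cycle inhibitor p21, at 0.07 cycles, with a median of 0.71 over the 34 genes. Cdkn1a had a Ct of 25.6 in untreated cells, 26.3 with CsA, 26.4 with 11R-VIVIT and 26.6 with SB203580, and log2 changes of -1.06, -0.85 and -1.36 in the treated samples. Next came Sod2 (mitochondrial superoxide dismutase) at 0.26 and Ccs (the copper chaperone of superoxide dismutase) at 0.27. Among the 5 genes, Cd44 and Anxa5 were nearest to each other (0.06 cycles) and Cd24 and Lgals3 farthest apart (0.94). These distances rest on 4 samples, in each of which 1 Actb value enters every gene.

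Of 14 genes listed as ligands, matrix partners or processing enzymes of the 5 proteins, the array holds Spp1, Fn1 and Timp1. Spp1 encodes osteopontin, a ligand of CD44, and its log2 change was 1.06 with CsA, 0.25 with 11R-VIVIT and 1.11 with SB203580. In the same order, Fn1 (fibronectin) had -0.13, -0.29 and -0.27, and Timp1 (an inhibitor of matrix metalloproteinases) -0.05, 0.02 and -0.58. Thus 1 of 3 partners was raised at least 2-fold with CsA and with SB203580 and 0 with 11R-VIVIT, and 0 were lowered. Over the array 20%, 15.2% and 5.26% of genes were raised with these treatments, and 16.2%, 8.86% and 3.95% lowered. Relative to the median Ct of the 64 detected genes or to their median difference, none of the 3 reached 2-fold upwards with any treatment. Between 2.53% and 15% of array genes did so there. Under the median Ct, 1 of the 3 was lowered with SB203580, beside 17.7% of array genes.

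Of 13 genes that NF-κB is known to induce downstream of Fn14 or related receptors, 6 were on the array, and 0 were raised at least 2-fold by any treatment. The share raised over the array was 20% with CsA, 5.26% with 11R-VIVIT and 15.2% with SB203580. Ccl3, Cxcl10 and Vcam1 were late, with Ct values of 33.4, 33.9 and 33.2 in untreated cells, so their changes are less certain. The chemokine gene Cxcl1 was lowered with CsA, from a Ct of 21.8 in untreated cells to 22.7 (log2 change -1.14), and had -0.19 with 11R-VIVIT and -0.82 with SB203580. Sod2 was lowered with SB203580 (-1.04). The chemokine gene Cxcl10 passed cycle 35 with 11R-VIVIT, which gives an upper bound of -1.06. Lcn2 had 0.89 with CsA, -0.02 with 11R-VIVIT and 0.17 with SB203580. Relative to Actb, no treatment moved all 6 genes one way. The median over them was -0.20 with CsA, -0.11 with 11R-VIVIT and 0.26 with SB203580, beside 0.15, -0.02 and 0.27 over the array. The SB203580 median was below 0 relative to the median Ct of the 64 detected genes (-0.18) and to the median of gene differences (-0.02). Under each of these references 2 of the 6 were lowered, beside 17.7% and 13.9% of array genes. In the same samples Tnfrsf12a had 1.15, 0.08 and -0.07. TWEAK was not among the treatments of these samples, and signalling through Fn14 was not tested.

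Of 17 genes listed for tubular injury and stress, 16 were on the array. CsA raised 6 of them, namely Vim (2.47), Sprr1a (2.38), Rtn4 (2.32), Gadd45a (1.91), Spp1 (1.06) and Tmsb10 (1.02), and lowered 3, Hmox1 (-2.24), Havcr1 (-2.10) and Cdkn1a (-1.06). Havcr1 encodes the injury marker KIM-1, Hmox1 the heme-degrading heme oxygenase 1 and Gadd45a a growth arrest protein. With SB203580, 6 were raised and 2 lowered, and with 11R-VIVIT 0 of the 15 with a value were raised and 1, the stress transcription factor gene Atf3 (-1.87), was lowered. On the whole array the share raised was 20% with CsA, 5.26% with 11R-VIVIT and 15.2% with SB203580. In the same order, the share lowered was 16.2%, 3.95% and 8.86%. The median of the list was 0.16 with CsA, 0.02 with 11R-VIVIT and 0.70 with SB203580, beside array medians of 0.15, -0.02 and 0.27. With the median Ct of the detected genes as the reference the list median was -0.44 with CsA and -0.39 with 11R-VIVIT, and SB203580 raised 0 of the 16. Under that reference CsA raised 4 and lowered 4, beside 8.75% and 31.2% of array genes. SB203580 lowered 4 (17.7% of array genes, with 2.53% raised) and 11R-VIVIT lowered 2 (11.8%). Relative to the median of gene differences CsA raised 4 and lowered 3, beside 15% and 18.8% of array genes. SB203580 then raised 1 and lowered 2, beside 3.8% and 13.9%. The lists overlap in Lcn2, Spp1 and Timp1.

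**Figure D4:**
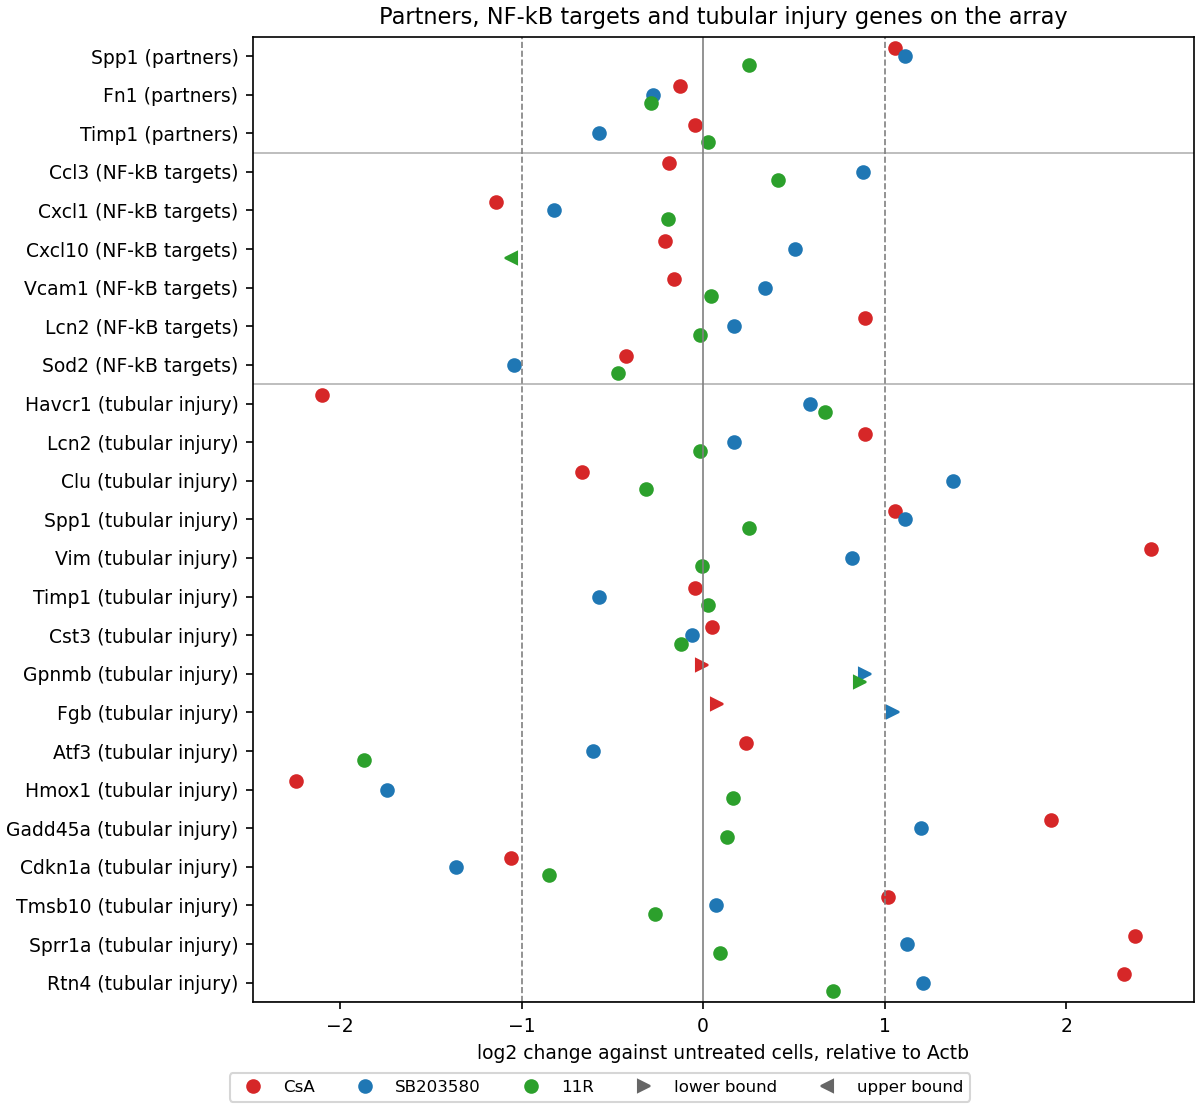
Log2 change against untreated cells, relative to Actb, of the array genes listed as partners, NF-κB targets and tubular injury genes; circles are values from 1 sample of each condition, triangles are bounds for genes past cycle 35, and dashed lines mark 2-fold. Spp1 lies above 2-fold with CsA and SB203580, no NF-κB target lies above it, and Vim is the rightmost gene with CsA.

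The array holds a small part of each list of cell type markers, and several of those present changed between the samples. Vim, the 1 fibroblast marker present, changed by 2.47 log2 units with CsA, -0.004 with 11R-VIVIT and 0.82 with SB203580. The proximal tubule marker Slc22a6 had -1.32 with CsA, 0.27 with 11R-VIVIT and 0.66 with SB203580. The distal tubule marker Egf (epidermal growth factor) had -1.15 with CsA, -0.11 with 11R-VIVIT and -1.45 with SB203580, and Calb1 (calbindin) passed cycle 35 in all samples but that with SB203580. Ctss, the 1 leukocyte marker present, had 1.36 with CsA, 1.35 with 11R-VIVIT and 1.25 with SB203580. These Ctss changes share 1 untreated Ct of 34.4, close to the limit of 35, and a deviation of it would enter each of them. Slc22a6 was also late. The part of these markers in the changes of Tnfrsf12a, Lgals3, Cd44, Anxa5 and Cd24 was not tested.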

How the data were processed

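Total RNA of MCT cells was extracted with TRIzol by the authors, and cDNA made from 1 μg of it was run on an RT-PCR array for nephrotoxicity genes (PAMM-094Z). The authors deposited 1 raw Ct for each of 84 genes and Actb in 4 samples, with no normalization. How many wells a value stands for and the cycler settings are not given in the sources used here. A second deposited table holds the authors' fold changes and was not used. All 4 value columns belong to samples of the series.

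Changes were calculated by the delta-delta Ct method relative to Actb, with an amplification base of 2. The methods normalize to the housekeeping genes of the array, of which the table used here holds Actb. A Ct of 35 or later was set to 35, so that a gene late in 1 sample has a bound and a gene late in both has no value. Late values numbered 12 in untreated, 6 in CsA, 10 in 11R-VIVIT and 5 in SB203580 cells. Calls are changes of 2-fold or more. No p-value was computed, since each condition has 1 sample, and this number limits how precise a value can be. The calculation was tested on simulated tables with known changes and no noise, which checks the arithmetic and not the precision of a value. The named genes are the 5 members, the listed genes on the array and the 3 nearest profiles of each member. Part of the proximal tubule marker list is not reported here. Members and lists were chosen with earlier results of these data known. All 5 symbols matched the RefSeq table of GRCm38.p6, 4 by symbol and 1 by synonym. Of these genes, 4 had a sequence in the separate promoter source. The tools were Python 3.11.15 with matplotlib 3.10.9, pandas 2.3.3 and numpy 2.4.6.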

Additional observations from a re-analysis of the deposited data

How the results depend on the processing

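Of 210 recalculated log2 changes of the 5 genes in the 6 comparisons, 183 held both sign and call, 11 lost a call, 3 gained one and 13, none of them called, changed sign. The cause was not tested unless the setting itself gives it. The 183 include every value under a Ct limit of 32 or none. Those settings could not alter the 5 genes, whose Ct was 25.1 at most. An amplification base of 1.9 only scales a change and cannot alter its sign. CsA against untreated cells raised 2 of the 5 genes relative to Actb, 0 relative to the median Ct of the 64 detected genes (8.75% of array genes), 1 relative to the median of gene differences, a reference chosen after the data were seen (15%), and 3 without a reference gene (27.5%). It lowered 1, and 0 without a reference gene (8.75%). 11R-VIVIT lowered 1 against untreated cells, and 0 relative to the early genes, to the median of gene differences or with an amplification base of 1.9, where 1.32% to 2.63% of array genes were lowered. CsA against 11R-VIVIT raised 2, but 1 relative to the 64 genes, to the early genes, to the median of gene differences or with a base of 1.9 (20.3% to 21.5% of array genes), and 4 without a reference gene (34.2%). At 1.5-fold, CsA raised 4 of the 5 against untreated cells (35% of array genes), 4 against SB203580 (30.9%) and 4 against 11R-VIVIT (35.4%). At 3-fold, 0 of the 5 were called in any comparison, where 1.27% to 15.2% of array genes were called in either direction. A Ct limit of 32 or none changed no call of the 5 genes, which were all detected before it. No paired analysis was possible because each condition has 1 sample. All values rest on 1 sample per condition, and the noise of a single Ct is unknown.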
